A study of Mus musculus with 20 samples.

Results

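Kinesin and dynein motor genes were followed in cultured mouse dorsal root ganglion (DRG) neurons fired electrically in different patterns. The genes were all those whose array name begins with Kif followed by a digit or c, Klc, Dync1, Dync2, Dynl or Dctn, which gave 67 gene names, carried by 99 probes of 39429 that are not controls, among 30222 gene names in all. The cells came from NIH Swiss mouse embryos of day 13.5, were grown for weeks in compartmented chambers with a mitotic inhibitor against dividing non-neuronal cells, and were deprived of nerve growth factor and serum overnight in all conditions. There were 5 conditions of 4 samples each: unstimulated neurons, and neurons stimulated for 2 hr or 5 hr with pulses of 6 V and 0.2 ms. The stimulus was a burst of 18 action potentials repeated at intervals of 1 min (18/1), or a burst of 90 at intervals of 5 min (90/5). Both patterns deliver the same number of action potentials over time and differ in burst length and interval. The labels and the study's methods name spinal cords as the tissue dissociated, while the cells are called DRG neurons. Of 4 motor neuron markers, only Slc18a3 passed the filter, and it was called 1.12 lower at 18/1 5 hr than in unstimulated neurons. Isl2 was well above background in 20 of 20 samples, Slc18a3 in 16, Chat in 7 and Mnx1 in 4. Their mean log2 signals in unstimulated samples were 11.89, 8.09, 6.97 and 6.59. Whether motor neurons were present was not tested. Each condition was made from pooled cultures, so no value belongs to a single animal, and p-values measure the spread between these samples, which may be technical. The study calls the 4 samples of a condition biological replicas.

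The 20 samples lay on 10 two-colour Agilent arrays, glass slides with 60-base probes, with 1 condition on each array in its 2 colours. Slide 1 held the unstimulated and the 18/1 2 hr samples, slide 2 the 18/1 5 hr and the 90/5 2 hr samples, and slide 3 the 90/5 5 hr samples. Any difference between conditions on different slides therefore cannot be told apart from a difference between slides. Slide 2 stood apart. Between 840 and 2800 spots were saturated in each of its samples, against at most 486 on slide 1 and 0 on slide 3, and between 45 and 14642 were marked as non-uniform, against at most 36 and 85. Array precision is limited by 2 arrays per condition, on which the samples of an array were correlated at 0.529. All 12 sensory neuron markers on the array, which include peripherin and the neurofilaments, were well above background in every condition, and the mean log2 signal of the 10 dividing cell markers was between 7.57 and 7.87 in every sample. The 8 Schwann cell markers averaged 9.88 to 10.46 and the 6 fibroblast markers 10.38 to 12.04, of which the 18/1 5 hr samples took 11.67 to 12.04. In bulk samples, fewer cells of a type and less RNA per cell cannot be told apart. The activity marker Nr4a1 was higher than in unstimulated neurons by 4.54, 4.44, 4.76 and 5.51 log2 units at 18/1 2 hr, 18/1 5 hr, 90/5 2 hr and 90/5 5 hr.

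Kinesins and cytoplasmic dynein are ATP-driven motors that walk along microtubules in opposite directions. In axons most kinesins carry vesicles, mitochondria, RNA and cytoskeletal subunits away from the cell body, and cytoplasmic dynein 1, with its activating complex dynactin, carries endosomes, spent organelles and growth factor signals back to it. Sensory neurons of the DRG have some of the longest axons in the body, and mutations in several of these motors cause axonal disease. Other kinesins build and break the mitotic spindle and are tied to cell division.

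Of the 67 motor genes, 40 passed the spot filter, which asked for a signal of at least 2 times the local background and no mark for a non-uniform spot in all 20 samples. A further 16 passed in all 4 samples of at least 1 condition, and 11 passed in no whole condition. Both kinesin-1 heavy chains of mainly neuronal use, Kif5a and Kif5c, all 4 kinesin light chains, all 4 kinesin-2 genes, all 6 dynactin subunits and 6 of 7 dynein light chains passed, with 4 of 7 kinesin-3 and 2 of 6 kinesin-4 genes. Of the 13 mitotic kinesins only Kif22 passed, 4 passed in some conditions and 8 in none. Of those 4, Kif20a and Kifc1 failed only through non-uniform marks on slide 2, so these counts depend in part on that slide. The spindle motor Kif11 passed in at most 8 of 20 samples and the midbody kinesin Kif23 in at most 3. None of these counts was tested.

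Neither the shortest stimulus of the 18/1 pattern nor the longest of the 90/5 pattern gave a called motor gene. At 18/1 2 hr, 0 of 40 motor genes were called in limma against unstimulated neurons (adjusted p under 0.05 over all 10355 genes), where 0.0193% of all genes were called. At 90/5 5 hr, 0 of 40 were called, where 0.0676% of all genes were. In both, 0 motor genes reached an unadjusted p below 0.05, and the smallest adjusted p values were 0.9998 and 0.9996. With the methods' t-test and a fold of over 1.4, 0 and 1 of 40 were called. The 18/1 2 hr comparison lies within slide 1, and fitted on that slide alone it also called 0 of 40, with 4 at an unadjusted p below 0.05. With the replicate number as a block, 0 of 40 motors and 7 of all genes were called. The data limit these differences rather than exclude them. The 95% intervals of 30 of 40 motor genes at 18/1 2 hr and of 26 of 40 at 90/5 5 hr lay within 1 log2 unit, that is, within a 2-fold change either way. The plot of fold changes against unstimulated neurons shows these 2 conditions beside the 2 of slide 2.

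**Figure D1:**
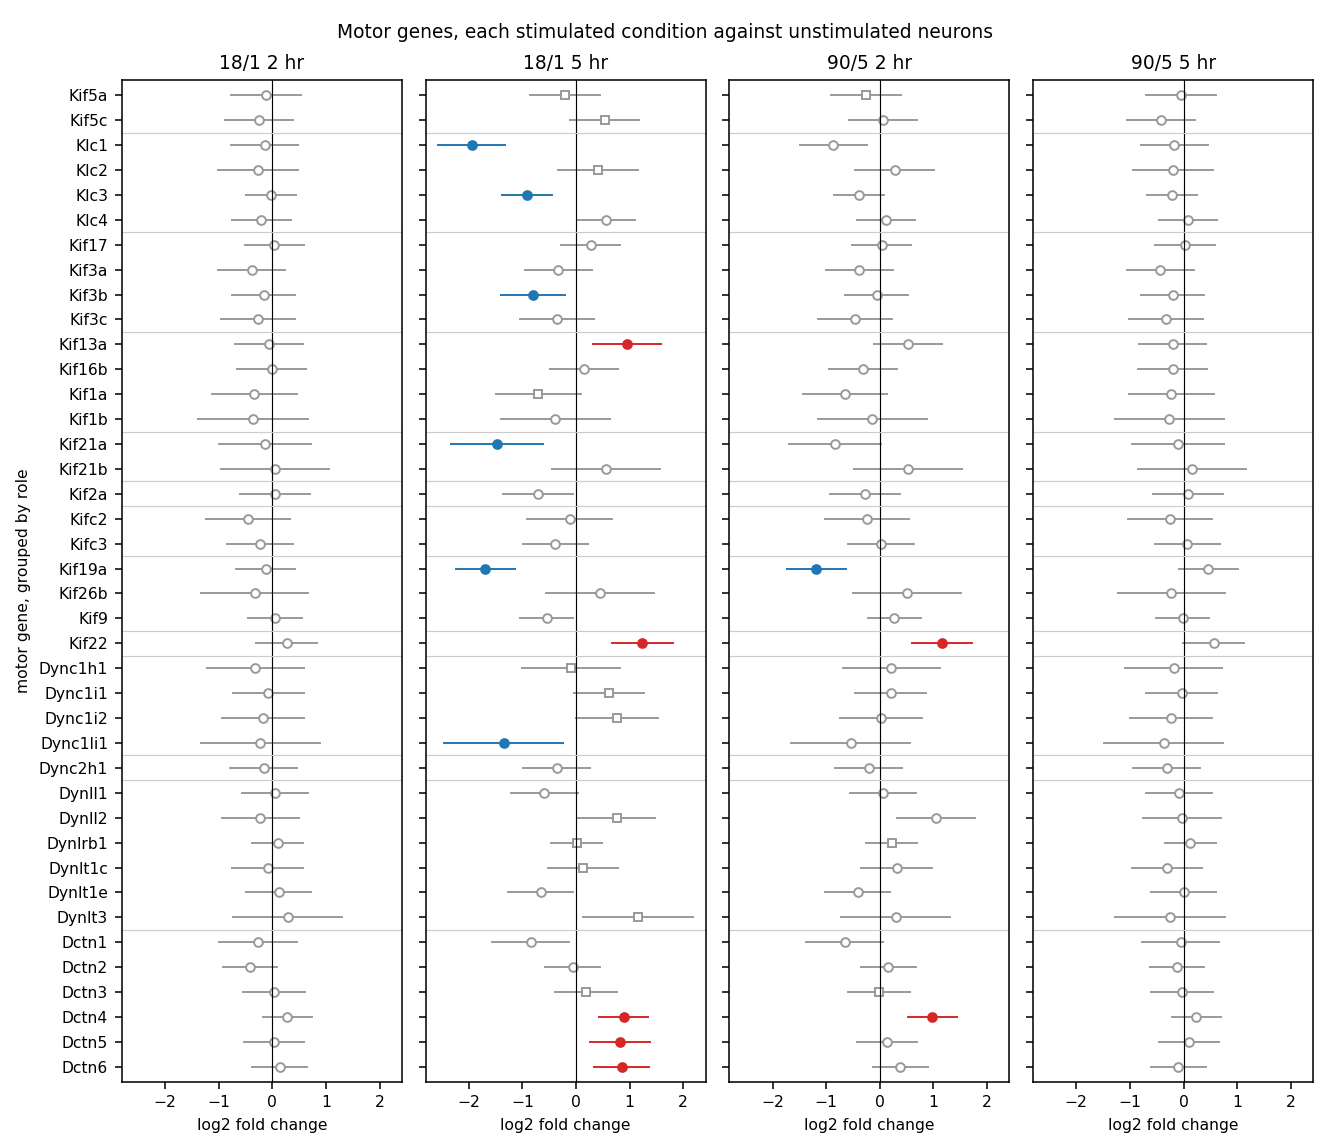
Log2 fold change of 40 motor genes in each stimulated condition against unstimulated neurons (n = 4 samples each), grouped by role; points are limma estimates, lines 95% intervals, red and blue filled points genes called higher and lower, and squares genes saturated in all 4 stimulated samples. No gene is called at 18/1 2 hr or 90/5 5 hr, 11 are called at 18/1 5 hr and 3 at 90/5 2 hr.

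The kinesin-1 motor shows both sides of this. Kinesin-1 is a heterotetramer in which a heavy chain (Kif5a, Kif5b or Kif5c) walks and the light chains (Klc1 to Klc4) bind cargo. Kif5a, the neuron-enriched heavy chain, had a log2 signal of 16.19 ± 0.05 (SD, n = 4) in unstimulated neurons and 16.14 ± 0.34 at 90/5 5 hr. The fitted difference was -0.05 with a 95% interval of -0.71 to 0.61, and since 2 of the 4 unstimulated samples were saturated, it is taken against a baseline that may be too low. At 18/1 5 hr it was saturated in all 4 samples, so its difference of -0.21 is not a measured one. Kif5c had log2 signals of 15.25 to 15.59 in unstimulated neurons and 14.80 to 15.35 at 90/5 5 hr, with a difference of -0.42 (95% interval -1.05 to 0.22). At 18/1 5 hr all 4 of its samples were saturated at 15.66 to 16.34, and the fitted difference of 90/5 5 hr from 18/1 5 hr was -0.95 (adjusted p = 0.01545 in limma). With each sample centred on its median alone that difference turned to 0.40, and the call was lost in 6 further alternatives of 21, so no bound is given.

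Klc1, a light chain abundant in neurons, had the lowest fitted difference of the 40 motors at 18/1 5 hr. Its probe lies in mm9 at chr12:113027568-113027627 on the plus strand. It was 15.22 to 15.40 in the unstimulated samples, 14.73 to 15.35 at 18/1 2 hr and 14.67 to 15.40 at 90/5 5 hr. At 18/1 5 hr its 4 samples were 13.04, 13.23, 13.45 and 13.74. All 4 lay below every sample of the other conditions except that 13.74 lay above 13.73, 1 of the 90/5 2 hr samples. The fall against unstimulated neurons was -1.94 ± 0.30 (SE, limma adjusted p = 5.451e-05), and 90/5 5 hr stood 1.77 ± 0.30 above 18/1 5 hr (adjusted p = 0.0001055). At 90/5 2 hr the samples of array 7 were at 14.69 and 15.27 and those of array 8 at 13.73 and 14.06, with a difference from unstimulated neurons of -0.87 that was not called. Array 8 had 1414 and 2350 saturated spots in its colours and array 7 had 870 and 840, and the part of this in the result was not tested. Klc1 has a single probe in the fit and it was not saturated on any array.

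Klc3, a light chain known best from sperm tails, fell by 0.92 at 18/1 5 hr (adjusted p = 0.002691), with no overlap between the groups. Its signal was low at 7.99 to 8.29 in unstimulated neurons and 7.09 to 7.26 at 18/1 5 hr, and with the GC trend of each sample removed the difference was -0.13 and not called. Klc4 and Klc2 had differences of 0.55 and 0.41 that were not called, and Klc2 was saturated in all 4 of the 18/1 5 hr samples. Of the 4 light chains, 2 were called lower and 0 higher at 18/1 5 hr, a share near the 44.4% of all genes called there, and 0 in either direction at the other 3 conditions.

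Over all motors, 11 of 40 were called at 18/1 5 hr against unstimulated neurons, 5 higher and 6 lower, where 44.4% of all genes were called. The motors' share of 27.5% is below that background in this processing. The 20 motors with a saturated spot in some sample gave 3 calls higher and 0 lower. The 20 without one gave 2 higher and 6 lower. With median centring alone the shares of motors and of all genes were nearly equal, as given below. The part of saturation in the lower share was not tested. The motors' median difference was -0.08 against -0.23 over all genes. The medians also stood apart with quantile normalization (-0.14 against -0.24), every probe (-0.09 against -0.26) and the GC trend removed (-0.11 against -0.20). Without background subtraction they were -0.08 and -0.23. They lay close with saturated probes left out (-0.37 against -0.38), the filter within a condition (-0.18 against -0.18) and median centring alone (-0.82 against -0.81). With no spot filter they were -0.16 and 0.02. At 90/5 2 hr, 3 of 40 were called, 2 higher and 1 lower, where 6.97% of all genes were called. Without array 1, 2 or 8 the count at 90/5 2 hr was 0, and without array 7 it was 5. At 18/1 5 hr, leaving out array 1, 2 or 6 gave 5, 7 or 17 motors called. The share of all genes called without an array is not given here or below. Such counts of motors therefore have no background beside them and do not set the motors apart from other genes. The medians at 90/5 2 hr were 0.03 for the motors and -0.08 for all genes. With quantile normalization they were 0.03 and -0.09, and with every probe 0.04 and -0.09. With saturated probes left out both were -0.13, and with the GC trend removed they were -0.10 and -0.07. The share of genes called in each comparison is plotted for the motors and for all genes.

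**Figure D2:**
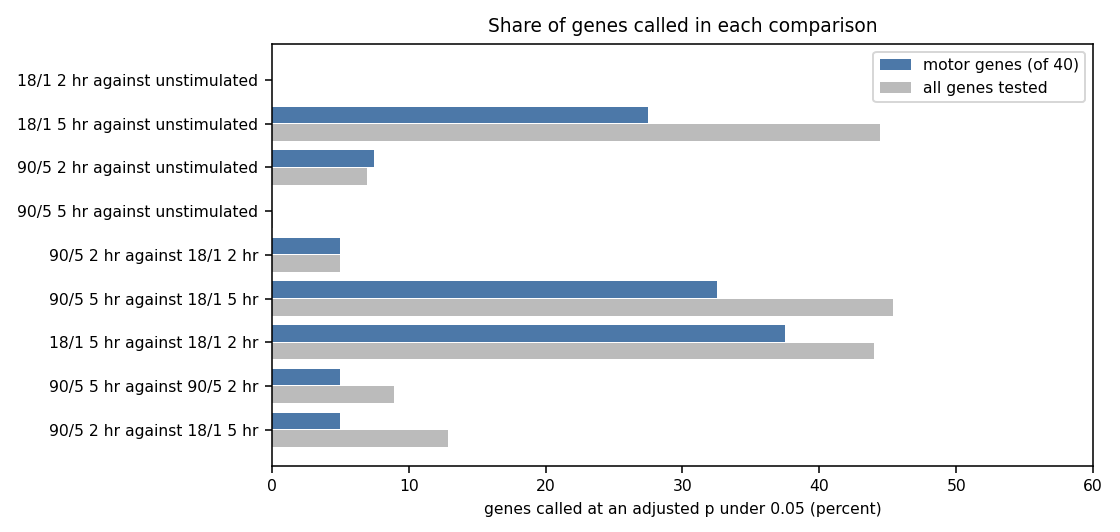
Percent of genes called (limma, adjusted p under 0.05) in each of 9 comparisons, for the 40 motor genes and all 10355 genes tested. The comparisons without a condition of slide 2 call 0 motor genes, and those with 18/1 5 hr on 1 side and slide 1 or 3 on the other call 11 to 15.

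Dynactin joins dynein to cargo and makes it processive, and Dctn4 to Dctn6 lie in its pointed end, where the complex contacts endosomes. Of the 6 subunits, 3 were called higher at 18/1 5 hr and 0 lower, a share near the 44.4% of all genes called there, with a median difference of 0.51 over the 6. Dctn4 was 13.50 to 13.74 in unstimulated neurons, 14.38 to 14.69 at 18/1 5 hr and 14.35 to 14.79 at 90/5 2 hr. It rose by 0.89 ± 0.22 at 18/1 5 hr (adjusted p = 0.002812) and by 0.98 ± 0.22 at 90/5 2 hr (adjusted p = 0.009185), with no overlap of either group with the unstimulated samples. With the GC trend of each sample removed the value at 18/1 5 hr was 0.34 and no longer called, and the call at 90/5 2 hr was lost too, as it was without array 1, 2 or 8. Dctn5 rose by 0.82 ± 0.27 and Dctn6 by 0.85 ± 0.25 at 18/1 5 hr (limma adjusted p = 0.01725 and 0.008749). With each sample centred on its median alone, Dctn6 turned to -2.21 and Dctn5 was no longer called. A second Dctn6 probe, described below, differed by -1.92 in the main normalization. Whether Dctn6 changed probe under median centring was not tested. Dctn5 also lost its call without array 1, 2 or 5 and with the GC trend removed, and Dctn6 without array 1. Both were saturated in 3 of 4 samples there, and Dctn4 in 2 of 4, so these values rest in part on saturated spots. Dctn1, the p150 arm that grips microtubules, had a difference of -0.85 that was not called and was saturated in 3 of 4 samples. Dctn2 and Dctn3 had differences of -0.06 and 0.19, and Dctn3 was saturated in all 4. At 90/5 5 hr the 6 subunits differed from unstimulated neurons by -0.12 to 0.24, and none was called.

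Where the array carried several probes for a motor, those on slide 2 did not always move alike. Of the motor genes, 5 had more than 1 probe that passed the filter. Dctn6 has 2 probes that share 23 bases. In mm9 they lie at chr8:35153655-35153714 and chr8:35153692-35153751, both on the minus strand. The first was used for the gene because its mean over all 20 samples was the higher, at 14.63 against 14.58. In the unstimulated, 18/1 2 hr and 90/5 5 hr samples the other was the higher of the pair, so the choice rests on the change on slide 2 itself. They are shown over 30 bases each because the disagreement falls inside an overlap, with the shared bases in capitals.
Dctn6 probe used: GTTGGAGAGAGGTGGGTCCTATTgtaacga
Dctn6 other probe: gacttgaGTTGGAGAGAGGTGGGTCCTATT
The probe used was 14.85 to 15.44 at 18/1 5 hr, above its unstimulated samples of 14.22 to 14.55. The other probe was 12.59 to 13.75 there, below its unstimulated samples of 14.94 to 15.20, and was not saturated in any of these samples. In the fit of every probe the probe used was called 0.85 higher (adjusted p = 0.00911) and the other fell by 1.92 (adjusted p = 8.105e-05). At 18/1 2 hr and 90/5 5 hr the probes differed from unstimulated neurons by 0.13 and 0.14, and by -0.10 and 0.02. The direction of Dctn6 at 18/1 5 hr therefore depends on the probe, and the rise given above is that of the probe with saturated spots.

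Dync1i1, the neuronal intermediate chain of dynein 1, has 2 probes that share 18 bases, at chr6:5977935-5977994 and chr6:5977977-5978036 of mm9 on the plus strand. The shared bases are again in capitals.
Dync1i1 probe used: atttattgtaatGTGCTGCATGGAACATAT
Dync1i1 other probe: GTGCTGCATGGAACATATttatttgaaagc
The brighter probe differed by 0.61 at 18/1 5 hr, which was not called, and the other by 2.72 (adjusted p = 4.967e-05). Both were saturated in all 4 samples, so these unequal differences are not measured sizes and do not show that the probes part. In unstimulated neurons the other probe was at 12.69 to 12.87 and the brighter at 14.91 to 15.18. At 90/5 2 hr the other probe was 13.16 and 12.92 on array 7 and 14.97 and 14.87 on array 8, so the arrays of 1 condition stood apart. The brighter probe was 14.97 and 15.17 on array 7 and 15.62 and 15.29 on array 8, where it was saturated.

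Dynll2, a light chain shared by dynein and myosin V, has 2 probes that do not overlap. The brighter differed by 0.76 and the other by -0.51 at 18/1 5 hr against unstimulated neurons, and neither was called. The brighter probe was saturated in all 4 samples and the other in none. Dctn4 has 2 probes that overlap almost fully, and both rose at 18/1 5 hr, by 0.89 and 1.32, and at 90/5 2 hr, by 0.98 and 1.13. Kif9, a kinesin of cilia, has 3 probes with differences of -0.09, -0.55 and -1.29 at 18/1 5 hr, of which only the last was called. The plot of probe pairs follows these signals through the conditions.

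**Figure D3:**
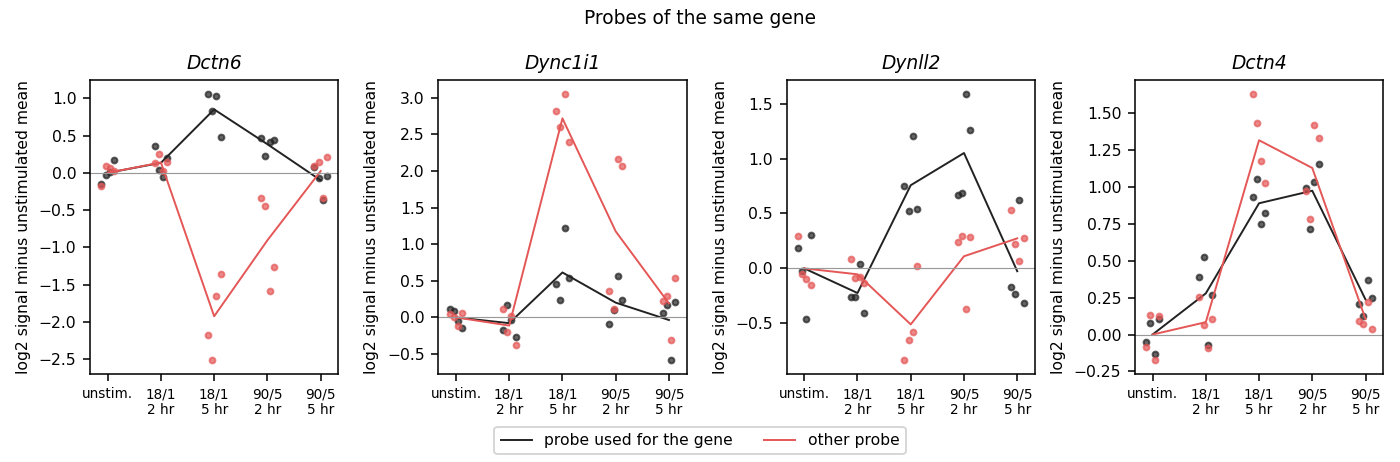
Log2 signal of 2 probes of the same gene in every sample, minus that probe's mean in unstimulated neurons, for Dctn6, Dync1i1, Dynll2 and Dctn4; points are samples (n = 4 per condition), lines join means, black is the probe used for the gene. The differences at 18/1 5 hr have opposite signs for Dctn6 (0.85 and -1.92) and Dynll2 (0.76 and -0.51, neither called) and the same sign for Dctn4 (0.89 and 1.32), while both Dync1i1 probes (0.61 and 2.72) are saturated in all 4 samples there.

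Among the other dynein chains, the heavy chain Dync1h1, the ATPase of the motor, had log2 signals of 15.36 to 15.84 in unstimulated neurons and 14.94 to 15.77 at 90/5 5 hr. Its differences were -0.31 at 18/1 2 hr and -0.18 at 90/5 5 hr, with 95% intervals from -1.22 to 0.60 and from -1.09 to 0.73. It was saturated in all 4 samples at 18/1 5 hr and in 3 of 4 at 90/5 2 hr, so neither mean on slide 2 is a measured level. The intermediate chain Dync1i2 was saturated at 15.76 to 16.50 at 18/1 5 hr and its fitted difference of 90/5 5 hr from 18/1 5 hr was -0.99 (adjusted p = 0.03207). That call was lost in 11 of 21 alternatives, and with median centring alone the difference turned to 0.465. Against unstimulated neurons it differed by 0.76 at 18/1 5 hr, which was not called. The light intermediate chain Dync1li1, which binds cargo adaptors, fell by 1.35 ± 0.53 at 18/1 5 hr (adjusted p = 0.04403), at 8.52, 7.01, 9.02 and 8.73 against 9.34 to 10.01 in unstimulated neurons. The call was lost in 12 of 22 alternatives, among them quantile normalization, both other spot filters, saturated probes left out, array 1, 2 or 5 left out, and any 1 of 4 single samples left out, of which the array 5 sample in Cy5 at 7.01 was the farthest out. Dync2h1, the heavy chain of the ciliary dynein 2, differed by -0.36 at 18/1 5 hr, which was not called.

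Of the 6 dynein light chains tested, 0 were called against unstimulated neurons in any condition, where 44.4% of all genes were called at 18/1 5 hr and 6.97% at 90/5 2 hr. At 18/1 5 hr Dynll2, Dynlt3, Dynlrb1 and Dynlt1c were saturated in all 4 samples and Dynlt1e in 3. The lack of calls there therefore does not show that these genes were unchanged. Dynlt1e had a mean of 14.93 there and 15.58 in unstimulated neurons. Dynlt3 was 14.03 to 14.12 in unstimulated neurons, saturated at 14.99 to 15.62 at 18/1 5 hr, and 14.42, 14.47, 12.26 and 14.14 at 90/5 5 hr, where replicate 3 lay far below the others. Its fitted difference at 18/1 5 hr from unstimulated neurons was 1.16, which was not called, and that of 90/5 5 hr from 18/1 5 hr was -1.41 (adjusted p = 0.02364). Without replicate 3 the latter was -0.92 and still called, and without array 10, with median centring alone (-0.74), with the GC trend removed or with either other spot filter it was not called. Dynll1, Dynlrb1 and Dynlt1c differed by -0.59, 0.01 and 0.13 at 18/1 5 hr, and the last 2 of them were saturated there in all 4 samples. Dynlt1c and Dynlt1e belong to a set of near-identical gene copies, so their signals may share transcripts.

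Kinesin-2, kinesin-3 and kinesin-4 move vesicles along axons and cilia. Kif3b, a kinesin-2 motor that pairs with Kif3a, fell by 0.81 ± 0.28 at 18/1 5 hr (adjusted p = 0.0261), from 8.37 to 8.64 down to 7.27 to 8.12. That call was lost without array 1, 2 or 6 and with no spot filter, and its values ran from -1.36 to -0.55. Its partner Kif3a differed by -0.33 and Kif3c by -0.35 there, and neither was called. Kif1a, the synaptic vesicle precursor motor, was 16.01 to 16.19 in unstimulated neurons and differed by -0.23 at 90/5 5 hr (95% interval -1.02 to 0.56). It was saturated in 2 of 4 unstimulated samples, so that baseline may be too low, and in all 4 samples at 18/1 5 hr. Kif1b, which carries mitochondria and synaptic vesicle precursors, differed by -0.26 at 90/5 5 hr and by -0.38 at 18/1 5 hr, and was saturated in 3 of 4 samples of the latter. Kif13a, a kinesin-3 motor of recycling endosomes, rose by 0.96 ± 0.30 at 18/1 5 hr (adjusted p = 0.01471), at 10.92 to 11.45 with no overlap. That call was lost without array 1 or 2, with the GC trend removed, with no spot filter and with median centring alone, where the value was 0.16. It stood 1.16 ± 0.30 lower at 90/5 5 hr than at 18/1 5 hr (adjusted p = 0.004082), a call lost without array 9, with the GC trend removed and with median centring alone (-0.25). Kif21a, a kinesin-4 that regulates microtubule ends in axons, fell by 1.47 ± 0.41 at 18/1 5 hr (adjusted p = 0.006828). Its samples there were 13.08, 12.97, 13.52 and 14.04, below all unstimulated samples of 14.73 to 15.02. Without array 1, with no spot filter, or with the GC trend of each sample removed, Kif21a was no longer called. Its relative Kif21b differed by 0.56, which was not called.

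Kif19a and Kif22 were called most often beside Klc1 and Dctn4. Kif19a, a microtubule-trimming kinesin of motile cilia, was 8.55 to 8.84 in unstimulated neurons, 6.90 to 7.09 at 18/1 5 hr and 9.05 to 9.39 at 90/5 5 hr. These 3 groups did not overlap. Only 2 of its 4 samples at 18/1 5 hr and 2 of 4 at 90/5 2 hr were well above background, so the falls there run to the floor of measurement and their size is not exact. It fell by 1.70 ± 0.27 at 18/1 5 hr (adjusted p = 5.972e-05) and stood 2.15 ± 0.27 higher at 90/5 5 hr than at 18/1 5 hr (adjusted p = 4.354e-06). At 90/5 2 hr it was 7.98 and 8.08 on array 7 and 7.13 and 6.91 on array 8, and fell by 1.18 ± 0.27 (adjusted p = 0.008751), a call lost without array 1, 2 or 8. Kif22, a chromokinesin of dividing cells and the only mitotic kinesin that passed the filter, rose by 1.24 ± 0.27 at 18/1 5 hr (adjusted p = 0.001124) and by 1.16 ± 0.27 at 90/5 2 hr (adjusted p = 0.01182). The first call was lost with median centring alone (0.435) and kept at 0.68 with the GC trend removed, and the second without array 1, 2 or 8 and with no spot filter. It was 9.34 to 9.67 in unstimulated neurons, 10.55 to 10.82 at 18/1 5 hr and 9.93 to 10.24 at 90/5 5 hr. Of the dividing cell markers, 1 passed the filter and rose by 1.42 at 18/1 5 hr, while 7 of 10 were well above background in all unstimulated samples and 3 of 10 in all 18/1 5 hr samples. Their part in the rise of Kif22 was not tested.

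**Figure D4:**
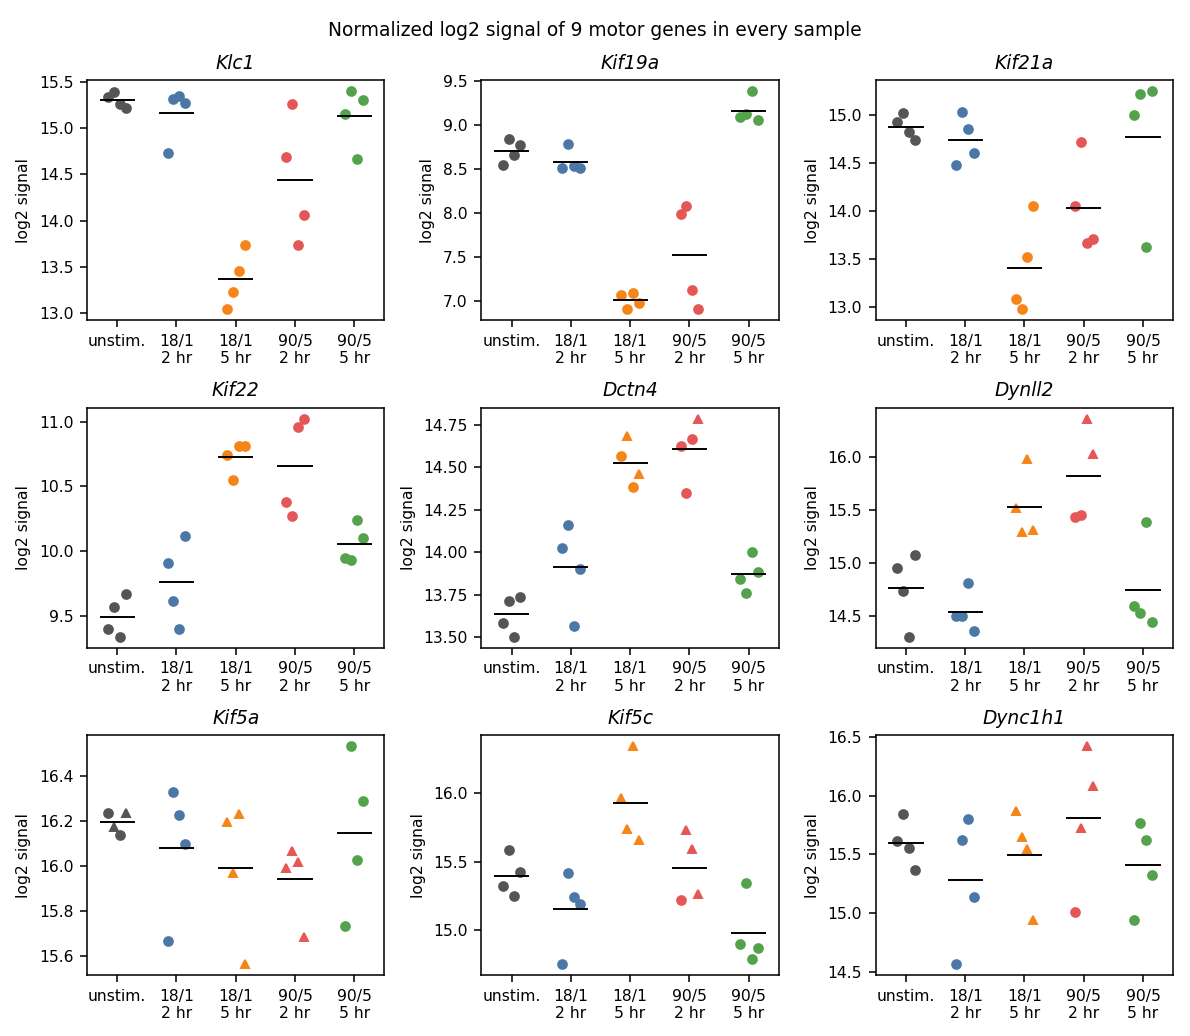
Normalized log2 signal of 9 motor genes in each of 20 samples; points are samples, triangles saturated spots, and bars the mean of 4 samples. Klc1, Kif19a and Kif21a are lowest in 18/1 5 hr samples, and Kif5a, Kif5c and Dync1h1 are saturated in all 4 of them.

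Saturation and probe composition moved with the calls. At 18/1 5 hr against unstimulated neurons, 20 of 40 motor genes had a saturated spot in some sample and 20 had none. Those with saturated spots were called higher in 3 cases and lower in 0, with a median difference of 0.16, and those without were called higher in 2 and lower in 6, with a median of -0.37. Saturation depends on the signal at 18/1 5 hr itself, so this split is partly set by the change. The probes of the 5 motors called higher had 35 to 40% G and C bases, with a median of 35%, and those of the 6 called lower had 35 to 55%, with a median of 49.2%. The median over all 40 was 38.3%. When each sample's trend on probe GC content was removed, 9 motors were called, 4 higher and 5 lower, and they were in part other genes. The share of all genes called in that setting is not given, so this count has no background beside it. Klc3 (-0.13), Dctn4 (0.34), Dctn5 (0.27), Kif13a (0.40), Kif21a (-0.91) and Dync1li1 (-1.19, from -1.35) lost their calls, Dctn2 (0.72) and Kif17 (0.98) were newly called higher, and Kif2a (-1.26) and Dynll1 (-1.02) newly called lower. The part of either in the results was not tested further.

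The patterns were compared with each other at each time. At 5 hr, 13 of 40 motors were called between 90/5 and 18/1, 5 higher at 90/5 and 8 lower, where 45.4% of all genes were called. Median differences were -0.10 for the motors and 0.23 for all genes. The motors' median stayed below 0 with quantile normalization (-0.12 against 0.24 for all genes) and every probe (-0.07 against 0.27). It did so too without background subtraction (-0.09 against 0.23) and with the GC trend removed (-0.04 against 0.19). It was above 0 with saturated probes left out (0.26 against 0.37) and the filter within a condition (0.12 against 0.18). The same held with no spot filter (0.12 against -0.02) and median centring alone (0.67 against 0.92). Fibroblast markers moved with this comparison, with 3 of 4 tested called lower at 90/5 and 0 higher, against 1 of 4 called higher and 0 lower at 18/1 5 hr from unstimulated neurons. Their part in the results was not tested. Higher at 90/5 were Kif19a, Klc1, Kif21a, Klc3 and Kif2a, a microtubule depolymerase, by 0.70 to 2.15. The call of Kif2a held in 7 of 22 alternatives and was lost in 15, among them each of the 90/5 5 hr replicates left out, with values of 0.23 to 1.65. Lower were Dynlt3, Kif13a, Dync1i2, Dctn6, Kif5c, Dctn5, Kif22 and Dctn4, and of these Kif5c, Dync1i2, Dctn5 and Dctn6 turned direction with median centring alone. Whether Dctn6 changed probe in that setting was not tested. The call of Dctn5 was lost in 12 other alternatives of 21. That of Dctn4 (-0.65) was lost in 6 of 21, with values of -1.08 to -0.04. Dynlt3, Dync1i2 and Kif5c were saturated in all 4 samples at 18/1 5 hr, Dctn5 and Dctn6 in 3 and Dctn4 in 2, so their differences are not exact. The differences without saturation were -1.16 for Kif13a and -0.68 for Kif22. The other Dctn6 probe was called 1.95 higher at 90/5 (adjusted p = 5.975e-05). The groups of Kif21a overlapped. Its call was lost in 5 of 22 alternatives, among them the GC trend removed and array 5 or 9 left out, with values of 0.73 to 1.74. Without array 9 the count was 6 and without array 10 it was 5. At 2 hr, 2 of 40 were called, where 4.96% of all genes were. Dynll2 was 1.27 ± 0.35 higher in the 90/5 pattern (adjusted p = 0.03462), at 15.43, 15.45, 16.36 and 16.02 against 14.36 to 14.81, where the last 2 of its 90/5 samples were saturated, and Kif19a was 1.06 ± 0.27 lower (adjusted p = 0.02185). The call of Dynll2 was lost in 12 of 21 alternatives, among them both other spot filters, the GC trend removed and 5 single samples left out. For Dynll2 the other probe differed by 0.16 in this comparison and was not called. Without array 3, 4 or 8 the count at 2 hr was 0, and without array 7 it was 7. The counts with an array left out have no all-gene share beside them. Both times set slide 2 against another slide, so pattern and slide cannot be told apart.

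The times were compared within each pattern. Between 18/1 5 hr and 18/1 2 hr, 15 of 40 motors were called, 9 higher and 6 lower at 5 hr, where 44% of all genes were called. Without array 3 the count was 3 and without array 4 it was 5, and other settings moved it both ways, as given under the dependence on processing. Lower at 5 hr were Klc1 (-1.81), Kif19a (-1.57), Kif21a (-1.33), Klc3, Dynlt1e and Kif9, and among the higher were Kif13a (1.02) and Kif22 (0.97). The calls of Klc1 and Kif19a held in all 22 alternatives, and those of Kif13a and Kif22 were lost with median centring alone (0.26 and 0.18), with the GC trend removed and without array 3. Kif21a lost its call without array 3, 4 or 5, with no spot filter and with the GC trend removed. Klc4, a light chain, was 0.76 ± 0.26 higher (adjusted p = 0.02373), and the fitted differences of Dynll2 and Kif5c, both saturated in all 4 of the 18/1 5 hr samples, were 0.98 and 0.78. The call of Dynll2 was lost in 10 of 21 alternatives, with 0.18 under median centring alone, and its other probe, without saturation, differed by -0.46 and was not called. The call of Kif5c was lost in 12 of 21, and its difference turned to -0.60 with median centring alone. Between 90/5 5 hr and 90/5 2 hr, 2 of 40 were called, where 8.96% of all genes were. These were Kif19a, 1.64 ± 0.27 higher at 5 hr (adjusted p = 0.0003352), and Dctn4, 0.74 ± 0.22 lower (adjusted p = 0.03826). The call of Dctn4 was lost in 12 of 21 alternatives, and the count was 1 without array 8, 9 or 10 and 7 without array 7. Between 90/5 2 hr and 18/1 5 hr, which share slide 2, 2 of 40 were called, where 12.9% of all genes were. Klc1 was 1.08 ± 0.30 higher at 90/5 2 hr (adjusted p = 0.02528), with overlapping groups, and Kif9 0.82 ± 0.24 higher (adjusted p = 0.02956). Fitted on slide 2 alone, 0 of 40 motors and 0 of 10355 genes were called, with 2 motors at an unadjusted p below 0.05. Without array 5 or 7 the count was 0, without array 6 it was 7 and without array 8 it was 8. With median centring alone it was far higher, as given under the dependence on processing. The median of all genes shifted there to 0.83 from 0.17. With the methods' t-test 3 motors were called. That count and those with an array left out have no all-gene share beside them.

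In limma, no motor gene was called in either comparison that left slide 2 out, while the methods' t-test called 1 at 90/5 5 hr. Of the 40, 21 were called in 0 of 9 comparisons, 6 in 1, and Kif19a in 6, the most. These comparisons share control samples, so the counts are not independent. In processing with each sample centred on its median alone, the motors called at 18/1 5 hr against unstimulated neurons became 21, with 1 higher and 20 lower (52.5%, where 52.6% of all genes were called), while the median of all genes shifted to -0.81 from -0.23. The falls of Klc1 and Kif19a at 18/1 5 hr stayed called in all 22 alternatives run for each, with values from -2.23 to -1.31 and from -2.02 to -1.22.

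Motors that missed the spot filter in some samples were fitted apart, over 18744 genes that passed in a whole condition. Of the 16, 8 failed on slide 2 only, and 7 only through the mark for non-uniform spots. Kif5b, the ubiquitous kinesin-1 heavy chain, was 10.96 ± 0.21 in unstimulated neurons and 11.66 ± 0.21 at 18/1 5 hr, with a difference of 0.70 that was not called. Dync1li2, the other light intermediate chain of dynein 1, differed by 0.59 there and Kif1c, which carries vesicles and RNA, by -0.73, and neither was called. Called at 18/1 5 hr were Kif14, a kinesin-3 of cell division, 1.23 higher, and Kif20a and Kif20b, kinesins of the late spindle, 1.30 and 1.00 lower. These are 3 of the 16, where 36.8% of the 18744 genes were called. Kif20a was well above background in 2 and Kif20b in 1 of 4 samples at 18/1 5 hr, and 2 of 4 spots of Kif14 and Kif20a were marked non-uniform there, so these sizes are not exact. The name Kif4b matches a pseudogene in RefSeq.

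Partners of the motors moved in both directions at 18/1 5 hr. Of 27 adaptors and regulators tested, 3 were called higher and 7 lower, a share of 37% that is below the 44.4% of all genes, and 0 and 0 at 18/1 2 hr and 90/5 5 hr. Nudc, a dynein chaperone, fell by 2.07 ± 0.28 (adjusted p = 1.602e-05), and Clstn1, a cargo receptor bound by Klc1, by 1.77 ± 0.30 (adjusted p = 0.0001221). Mapk8ip2, a kinesin-1 scaffold, fell by 1.53 and Sybu, a kinesin-1 linker of axonal cargo, rose by 1.28. Of 6 dynein cofactors tested, Capza1 and Nde1 rose by 1.15 and 0.84 and 0 fell, a share of 33.3% that is below the 44.4% of all genes. The median differences of these lists were -0.25 and 0.36, against -0.23 over all genes. All these values set slide 2 against slide 1.

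Promoters were read for the motors from RefSeq (GRCm38.p6), where 50 of 67 gene names had a window from 250 bases before to 50 bases after a start, 57 windows in all. The motif searched for activity-dependent transcription was the cAMP response element TGACGTCA, which reads the same on both strands. It was present in 5 of the 57 motor windows (8.77%), of Dctn3, Kif17, Kif18a, Kif5c and Klc1, and in 588 of all 32851 windows (1.79%). The AP-1 motif TGAGTCA, on either strand, was in 0 motor windows and 5.2% of all windows, and the EGR motif GCGTGGGCG in 0 and 0.612%. The GC box GGGCGG, on either strand, was in 64.9% of motor windows and 35.7% of all windows, and the CCAAT box CCAAT in 43.9% and 37.4%, so an unequal share is not particular to the cAMP response element. No share was tested. A match describes these letters and not a bound site. The bases before the start are given for both kinesin-1 genes that hold it, with the motif in capitals. Klc1 lies at chr12:111758618-111758867 and Kif5c at chr2:49619036-49619285, both on the plus strand. The motif starts 33 bases before the start of Klc1 and 26 before that of Kif5c.
Klc1: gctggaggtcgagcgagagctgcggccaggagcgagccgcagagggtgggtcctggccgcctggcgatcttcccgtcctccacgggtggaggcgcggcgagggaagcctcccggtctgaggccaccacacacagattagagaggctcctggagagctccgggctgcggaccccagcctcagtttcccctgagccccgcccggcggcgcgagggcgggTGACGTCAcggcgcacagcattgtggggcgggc
Kif5c: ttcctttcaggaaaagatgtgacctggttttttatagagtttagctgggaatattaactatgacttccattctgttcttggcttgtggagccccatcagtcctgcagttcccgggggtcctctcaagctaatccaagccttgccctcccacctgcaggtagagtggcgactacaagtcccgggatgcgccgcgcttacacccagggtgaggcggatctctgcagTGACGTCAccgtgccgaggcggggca
At 18/1 2 hr these genes differed from unstimulated neurons by -0.14 (Klc1) and -0.24 (Kif5c), and neither was called.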

How the data were processed

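RNA from 20 samples was measured on 10 two-colour arrays. The authors deposited linear spot intensity and local background intensity for each colour from Agilent Feature Extraction, version 10.7.1.1 on slide 1 and 10.7.3.1 on slides 2 and 3, not normalized. Probe positions are those of the files (mm9). Background was subtracted with normexp (offset 50), colours were normalized by loess with controls at weight 0, and arrays by Aquantile (R 4.3.3, limma 3.58.1). Spots had to be at least 2 times background and not marked non-uniform in all 20 samples, and the probe of highest mean signal represented a gene name. limma was fitted with condition, colour and array as a random block, with Benjamini-Hochberg adjustment over 10355 genes. In data simulated for 18/1 5 hr against unstimulated neurons (10355 genes), the fit recovered 32% of 2-fold and 93.5% of 4-fold changes. Recovery in the measured data of this or any other comparison was not tested. Log2 differences were computed from the normalized log2 signals. For 18/1 5 hr and 90/5 2 hr the labels do not settle which colour held which replicate, so samples are named by array and colour. Where samples were saturated the fitted log2 difference is given with their number and is not a measured size. No bound is given, since some such differences turned direction under another normalization. Same-numbered unstimulated and 18/1 2 hr samples deviated together in all 4 pairs (correlations 0.411 to 0.716), while pairs with 90/5 5 hr samples did not all do so. Same-numbered samples also share a colour, which was not removed from these deviations. The correlations therefore cannot show that the number pairs the cultures. Named genes were a fixed set of transport motors and, per comparison, the 3 called with the largest rise and fall among those without overlap. Some further values are given for members outside this rule, chosen after they were seen. The members and lists were chosen with earlier results of these data known. Alternatives covered background, normalization, filter, saturation, probe choice, array block, GC content, slide, replicate number, the methods' t-test, and leaving out samples and arrays. Figures were drawn with matplotlib.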

Additional observations from a re-analysis of the deposited data

Results flagged for a closer look

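Within conditions, 7 of 150 sets of 4 samples held a sample far from the other 3 by Dixon's criterion, which chance alone gives in about 1 of 20 sets. Those in the 18/1 2 hr samples were Klc1 in replicate 1, at 14.73 against 15.27 to 15.35, and Kif19a in replicate 2, at 8.78 against 8.51 to 8.53. In the 90/5 5 hr samples Kif3c in replicate 1 was 13.93 against 14.33 to 14.35, and replicate 3 held Kif21a at 13.62 against a highest value of 15.24, Dynll2 at 15.39 against 14.45 to 14.60 and Dynlt3 at 12.26 against 14.14 to 14.47. In unstimulated neurons Dynlrb1 in replicate 3 was 15.97 against 15.88.

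In limma's direct test of 90/5 against 18/1, 2 named motors were called at 2 hr and 11 at 5 hr. Of all genes, 4.96% and 45.4% were called. The unstimulated samples cancel in this test and slide 2 faces another slide, so pattern and slide cannot be told apart. Some named motors were picked because they were called in the same comparison, so these counts are partly set by that choice. Dynll2 was 1.27 higher and Kif19a -1.06 in log2 units at 90/5 against 18/1 at 2 hr. At 5 hr the differences were -0.95 for Kif5c, 1.77 for Klc1, 1.37 for Kif21a, 0.78 for Kif2a, -0.99 for Dync1i2, -1.41 for Dynlt3, -0.65 for Dctn4, -0.73 for Dctn5, -0.95 for Dctn6, 2.15 for Kif19a and -1.16 for Kif13a. Several of these calls were lost in alternatives, among them Dctn4 (6 of 21, with values of -1.08 to -0.04) and Kif21a (5 of 22). Kif5c, Dync1i2 and Dynlt3 were saturated in all 4 of the 18/1 5 hr samples, so their differences are not measured sizes, and Dctn4, Dctn5, Dctn6 and, at 90/5 2 hr, Dynll2 were saturated in 2 or 3 of 4. Kif19a was well above background in 2 of 4 samples at 18/1 5 hr and at 90/5 2 hr.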

How the results depend on the processing

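The counts of motor genes called in limma moved by over 1.5 times in the following settings, and the cause was not tested. Calls over all genes can move with the same settings and are not listed here. The counts therefore describe the processing, and not the motors apart from other genes. With quantile normalization the count was 1 for 90/5 5 hr against 90/5 2 hr. With median centring alone it was 21 for 18/1 5 hr against unstimulated neurons and 19 for 90/5 2 hr against 18/1 5 hr. With the spot filter applied within a condition it was 1 for 90/5 against 18/1 at 2 hr. With no spot filter it was 0 for 90/5 against 18/1 at 2 hr, 8 for 18/1 5 hr against 2 hr, 1 for 90/5 5 hr against 2 hr and 1 for 90/5 2 hr against 18/1 5 hr. With saturated probes left out it was 7 for 18/1 5 hr against unstimulated neurons, 1 for the patterns at 2 hr, 5 for the patterns at 5 hr, 7 for 18/1 5 hr against 2 hr and 1 for 90/5 5 hr against 2 hr. That setting drops motors with saturated probes, so its counts are taken over fewer motors. At 18/1 5 hr against unstimulated neurons, 20 motors had no saturated spot. With every probe it was 4 for 90/5 2 hr against 18/1 5 hr. Without the array block it was 23 for 18/1 5 hr and 7 for 90/5 2 hr against unstimulated neurons, 6 and 21 for the patterns at 2 hr and 5 hr, 24 and 7 for the times within 18/1 and 90/5, and 7 for 90/5 2 hr against 18/1 5 hr. With the probe GC trend removed it was 7 and 1 for the times within 18/1 and 90/5 and 1 for 90/5 2 hr against 18/1 5 hr. Within slide 2 it was 0 for the latter.

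The share of all genes called by the methods' t-test is not given, so its counts of motors have no background beside them. It called 17, 7 and 1 motors at 18/1 5 hr, 90/5 2 hr and 90/5 5 hr against unstimulated neurons, 6 for the patterns at 2 hr and 4 for the times within 90/5. After Benjamini-Hochberg adjustment it called 0 at 90/5 2 hr against unstimulated neurons, 0 for the patterns at 2 hr, 0 for the times within 90/5 and 0 for 90/5 2 hr against 18/1 5 hr. Leaving out 1 sample or array gave 0 to 0 for 18/1 2 hr and for 90/5 5 hr, 5 to 17 for 18/1 5 hr and 0 to 5 for 90/5 2 hr against unstimulated neurons, 0 to 7 and 5 to 16 for the patterns at 2 hr and 5 hr, 3 to 20 and 1 to 7 for the times within 18/1 and 90/5, and 0 to 8 for 90/5 2 hr against 18/1 5 hr.

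With median centring alone, 18 differences of named genes turned direction. At 18/1 5 hr against unstimulated neurons these were Dynlrb1 (-1.59), Dctn3 (-1.72) and Dctn6 (-2.21), and against 18/1 2 hr Kif5c (-0.60), Dync1i2 (-0.52), Dctn3 (-1.91) and Dctn6 (-2.53). For the patterns at 5 hr they were Kif5c (0.40), Dync1h1 (1.02), Dync1i2 (0.465), Dctn3 (1.80), Dctn5 (0.0089) and Dctn6 (2.39). For 90/5 2 hr against 18/1 5 hr they were Kif5a (1.28), Kif5c (1.17), Klc2 (0.88), Dctn3 (1.27) and Dctn6 (1.79). In the fit of every probe, the other Dctn6 probe differed in these comparisons, in the order given, by -1.92, -2.06, 1.95 and 1.02. Whether Dctn6 changed probe under median centring was not tested. With the GC trend removed, Dctn2 turned to 0.72 at 18/1 5 hr against unstimulated neurons. The calls of Klc1 and Kif19a at 18/1 5 hr against unstimulated neurons, 18/1 2 hr and 90/5 5 hr kept their direction and side of the threshold in all 22 alternatives.

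With the replicate number as a block, 0 motors were called at 18/1 2 hr and 0 at 90/5 5 hr against unstimulated neurons, as without it, and all-gene calls were 7 and 359 (0.0676% and 3.47%) against 2 and 7 without it. Unstimulated and 90/5 5 hr samples of the same number correlated at -0.053 to 0.485 in their deviations. Over all 12 pairs, 7 matched their own number best. Same-numbered samples share a colour, which was not removed from the deviations, so the number is not taken to pair the samples. Signals at saturation limit what slide 2 can show, and 12 motors were saturated in all 4 samples at 18/1 5 hr.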
